A study of Mus musculus with 20 samples.

Results

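The genes described here are 39 genes of cell cycle entry and DNA replication, measured in the livers of mice given IL-1β (interleukin-1 beta, an inflammatory cytokine) or saline. They were found by symbol in each of the 6 deposited tables of counts, out of 37681 genes listed. Of the 39 genes, 38 were among the 15578 genes tested, the genes that reached 5 reads in 5 libraries or more of a table. The remaining gene, Cdc6 (which helps load the replicative helicase at origins), had 0 to 8 reads in every library and was not tested. The list falls into 16 regulators of the G1 phase, 17 genes of DNA replication and 6 genes of mitosis and proliferation.

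A resting cell enters the cycle when D-type cyclins with Cdk4 or Cdk6, and then E-type cyclins with Cdk2, phosphorylate the Rb protein and release E2F transcription factors, which switch on genes of DNA replication. Origins are licensed when the MCM helicase is loaded onto DNA, and the helicase is activated by Cdc45 and the GINS complex. Cyclins A and B with Cdk1 then drive mitosis. Hepatocytes of the adult liver are nearly all out of the cycle, and they enter it after loss of tissue.

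The 10 male mice were 12 weeks old, of strain C57/BL6 (C57/B6J from Jackson Labs). Of these, 5 received IL-1β at 20 µg/kg (mice ILB_9577, ILB_9578, ILB_9579, ILB_9582 and ILB_9583) and 5 received saline (UNT_9574, UNT_9575, UNT_9576, UNT_9580 and UNT_9584, called untreated), and the liver was taken after 4 h. RNA of each liver was sequenced on an Illumina HiSeq and on an Ion Torrent Proton, so the 20 libraries come from 10 animals. Each platform has a table from each of 3 aligners (GSNAP, STAR, and STAR with Bowtie2 for the reads left over), so there are 6 tables of 10 libraries. Values by mouse follow the order of the mouse numbers above.

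Totals per library lay between 10568530 and 12008799 in the Illumina tables and between 12199528 and 16439683 in the Ion Torrent tables. Levels are given in CPM, the reads of a gene per 1e6 reads, with TMM-scaled library sizes. Hepatocyte markers such as Alb and Ttr summed to 71800 to 112000 CPM in the Illumina libraries, and 8 of 8 acute response genes used to check the treatment were higher with IL-1β on both platforms. The Ion Torrent library of untreated mouse UNT_9584 stood apart. Its deviations from the group mean correlated with those of the same animal's Illumina library at 0.199 to 0.249, against 0.562 to 0.728 for the other 9 mice, so the counts of called members on Ion Torrent are given with and without that mouse.

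As a group, the cell cycle genes were called about as often as other genes of the liver, and in both directions. With Illumina GSNAP counts, 7 members were higher and 8 lower with IL-1β at an adjusted p below 0.05 (edgeR quasi-likelihood test, Benjamini-Hochberg adjustment over all genes tested), which is 39.5% of 38, while 47.5% of all genes tested were called (23.7% higher and 23.9% lower). With Ion Torrent GSNAP counts, 6 were higher and 11 lower, or 44.7%, beside 46.4% of all genes (22.5% and 23.9%). Without mouse UNT_9584 the Ion Torrent counts were 6 and 7, beside 21.0% higher and 22.0% lower over all genes. In all 6 tables in 1 direction, 5 members were higher and 5 lower, or 26.3%, beside 34.9% of all genes (17.3% and 17.6%). The median log2 fold change of the members was -0.18 on Illumina and -0.08 on Ion Torrent, and 0.00 over all genes tested. A change in a gene of a whole liver can come from fewer or more cells of a type or from the RNA per cell, and these data cannot tell these apart.

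**Figure D1:**
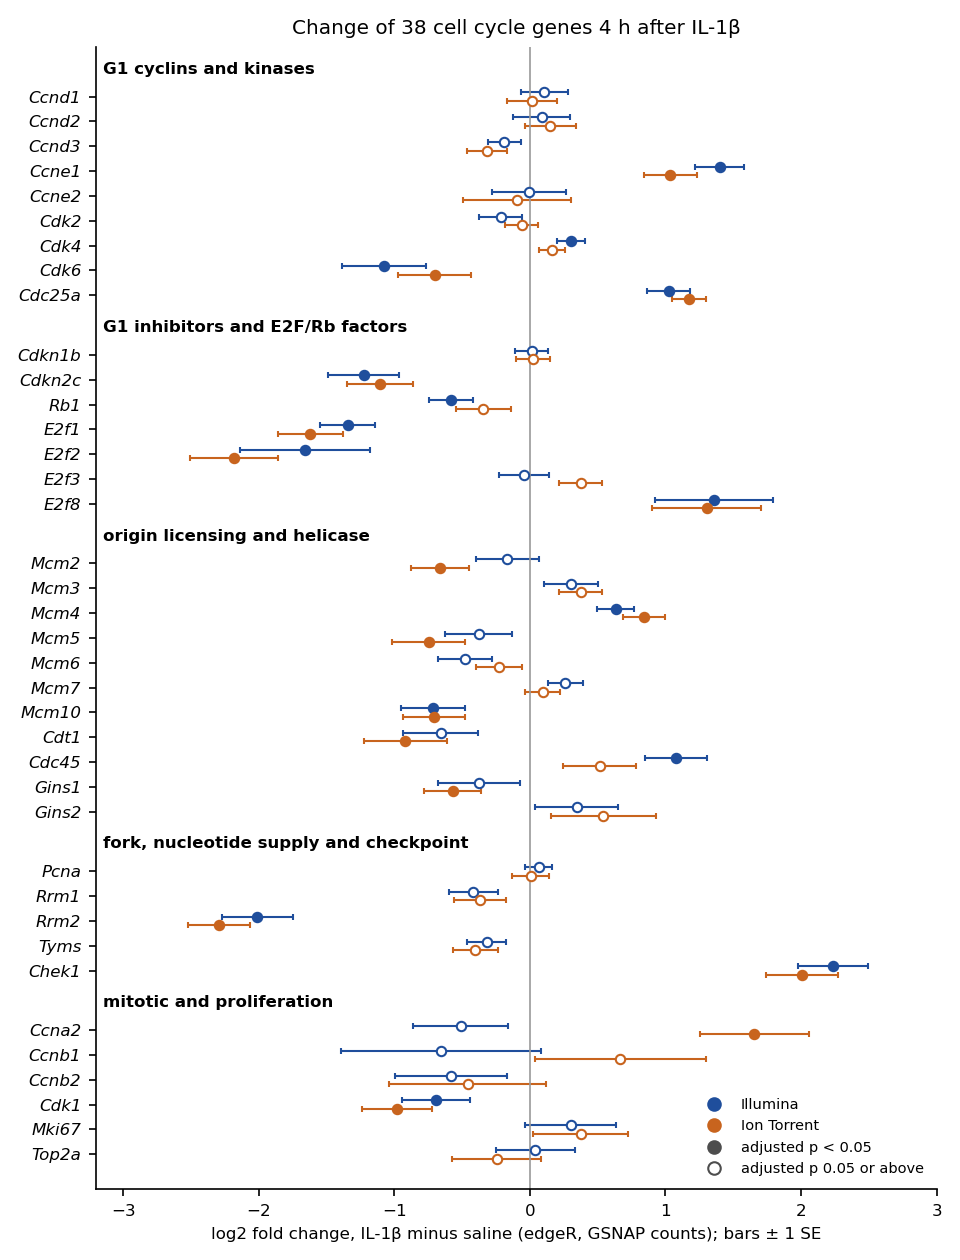
Log2 fold change with its SE (x axis, IL-1β minus untreated) of the 38 members tested, by role, in the 5 treated and 5 untreated mice, with GSNAP counts of Illumina (blue) and Ion Torrent (orange). Filled points have an adjusted p below 0.05. Chek1 lies farthest to the right at 2.24 and 2.004, and Rrm2 farthest to the left at -2.01 and -2.29.

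The groups of mice did not overlap for 5 members that were higher and 5 that were lower with Illumina GSNAP, where 35.2% of all genes did not overlap (18.2% higher and 17% lower), and for 5 and 5 with Ion Torrent GSNAP, where the share was 33.9% (16.8% and 17%). By the rank-sum test that the study used, 5 members were higher and 7 lower with Illumina GSNAP, beside 40.1% of all genes called (14.3% higher and 25.7% lower), and 5 and 8 with Ion Torrent GSNAP, beside 38.8% (13.2% and 25.6%). With Illumina STAR and STAR + Bowtie2 it called 5 members higher each, beside 13.8% and 14.7% of all genes. Scaling by library totals alone, without the TMM factors, moved the median of genes with a mean of at least 10 reads by -0.13 to -0.09 on the log2 scale. Under that scaling 6 members were higher and 12 lower with Illumina GSNAP, against 7 and 8. The share of all genes called moved likewise, to 18.4% higher and 29% lower. With Ion Torrent STAR it was 16.1% higher and 26.6% lower, and 13 members were lower against 8.

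Among the G1 cyclins and kinases, which push a cell toward S phase, 2 of 9 members rose in all 6 tables, beside 17.3% of all genes. The 3 D cyclins, Ccne2 and Cdk2 were called in no table, Cdk4 was called higher in 3 and Cdk6 lower in 5. Ccne1 (cyclin E1, the partner of Cdk2) was at 6.77, 7.79, 8.70, 7.37 and 8.27 CPM in the treated mice and at 3.64, 2.96, 1.78, 3.52 and 2.81 in the untreated mice (Illumina GSNAP, as are the values by mouse below). Every treated mouse was above every untreated mouse. The rise was 2.64-fold, a log2 fold change of 1.40 (SE 0.18, adjusted p = 1.999e-05, edgeR), and 1.04 (SE 0.19, adjusted p = 0.000445) on Ion Torrent. The gene lies on chromosome 7 at 38883003 to 38892553 of mm9, on the minus strand.

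Cdc25a, the phosphatase that removes inhibitory phosphates from Cdk2, was at 10.2, 14.8, 13.0, 11.5 and 13.6 CPM in treated mice and 5.07, 7.68, 4.70, 6.53 and 7.03 in untreated mice. Again the groups did not overlap. It rose 2.03-fold (log2 1.02, SE 0.16, adjusted p = 0.000108, edgeR) and 2.25-fold on Ion Torrent (1.17, SE 0.12). Cdc25a lies on chromosome 9 at 109778083 to 109796392, plus strand.

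Cdk6 (a partner of the D cyclins) moved the other way and was called lower in 5 of 6 tables. Its mean was 2.75 ± 1.16 CPM (SD, n = 5) with IL-1β and 5.81 ± 2.29 without (log2 -1.08, SE 0.31, adjusted p = 0.0102, edgeR). Its log2 fold change on Ion Torrent was -0.70 (SE 0.27, adjusted p = 0.0447, edgeR), and untreated mouse UNT_9580 was highest, at 7.22 CPM against 2.35 to 4.37 in the other 4. Without that mouse the Ion Torrent value was -0.40 (adjusted p = 0.173), and it also missed the threshold without ILB_9577, ILB_9579, ILB_9582, ILB_9583, UNT_9576 or UNT_9584, with log2 values of -0.75 to -0.64.

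Cdk4, the other kinase of the D cyclins, was called higher in the 3 Illumina tables and in none from Ion Torrent, with log2 values of 0.30 (SE 0.10) and 0.16 (SE 0.10) for GSNAP. The Illumina call was lost without ILB_9577, ILB_9578, ILB_9583, UNT_9576 or UNT_9584, at 0.25 to 0.28. Its exons overlap those of Tspan31 on the other strand over 18.6% of their length, and Tspan31 was at -0.02 (SE 0.09) in the same libraries.

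The 5 other genes of this group passed in no table. Ccnd1 and Ccnd2 (cyclins D1 and D2) had log2 fold changes of 0.11 (SE 0.18) and 0.09 (SE 0.21) on Illumina, with signs that turned to -0.026 and -0.037 without TMM scaling. Ccnd3 was at -0.19 (SE 0.12) and -0.31 (SE 0.15) on the 2 platforms, and without mouse ILB_9583 the Ion Torrent value was -0.44 (adjusted p = 0.0143, edgeR). Bysl, which overlaps 15.7% of the exons of Ccnd3 on the other strand, rose by 1.42 (SE 0.17) on Illumina. Ccne2 (cyclin E2) was at -0.01 (SE 0.27) and -0.10 (SE 0.40), and Cdk2 at -0.21 (SE 0.16) and -0.06 (SE 0.12). The difference between Ccne1 and Ccne2 was not tested.

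Among the inhibitors and the E2F and Rb factors, 3 of 7 members fell in all 6 tables and 1 rose, beside 17.6% and 17.3% of all genes. E2f1, an E2F that activates replication genes, was at 1.51, 1.67, 1.03, 1.31 and 1.52 CPM in treated mice and at 3.25, 2.96, 3.49, 4.77 and 3.51 in untreated mice. No treated mouse reached the lowest untreated one. Its log2 fold change was -1.34 (SE 0.20, adjusted p = 7.87e-05, edgeR), or 0.394 of the untreated level, and -1.62 (SE 0.24) on Ion Torrent. The gene lies on chromosome 2 at 154385143 to 154395628, minus strand.

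E2f2, another activator E2F, was among the less abundant members, with 1 to 8 reads in the treated Illumina libraries and 9 to 35 in the untreated ones (GSNAP). The levels were 0.713, 0.278, 0.0936, 0.467 and 0.475 CPM with IL-1β and 0.951, 2.80, 1.22, 0.753 and 0.790 without. Mouse UNT_9575 was highest of the untreated mice on both platforms, and the groups did not overlap. The log2 fold change was -1.66 (SE 0.48, adjusted p = 0.0106, edgeR) on Illumina and -2.18 (SE 0.32, adjusted p = 5.52e-05) on Ion Torrent. Leaving out UNT_9575 brought the Illumina GSNAP value to -1.17 (adjusted p = 0.0310) and ended the call in the Illumina STAR table (adjusted p = 0.0512), where the value came to -1.35. E2f2 lies on chromosome 4 at 135728309 to 135751972, plus strand.

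E2f8, an atypical E2F that represses E2F targets, rose, and its untreated mice differed widely. It was at 22.5, 36.6, 34.0, 24.9 and 25.4 CPM with IL-1β, and at 7.29, 2.56, 5.59, 28.9 and 11.7 in untreated mice. Mouse UNT_9580 lay inside the treated range on Illumina and, at 27.2 CPM, also on Ion Torrent, so the groups overlapped through 1 animal. The log2 fold change was 1.36 (SE 0.43, adjusted p = 0.0180, edgeR) on Illumina and 1.30 (SE 0.40, adjusted p = 0.0145) on Ion Torrent. Without UNT_9580 it was 2.09 and 2.01, with adjusted p-values of 0.000104 and 3.79e-05. Without UNT_9574 the Illumina value was 1.22, at an adjusted p of 0.05001. E2f8 lies on chromosome 7 at 56121799 to 56136966, minus strand.

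**Figure D2:**
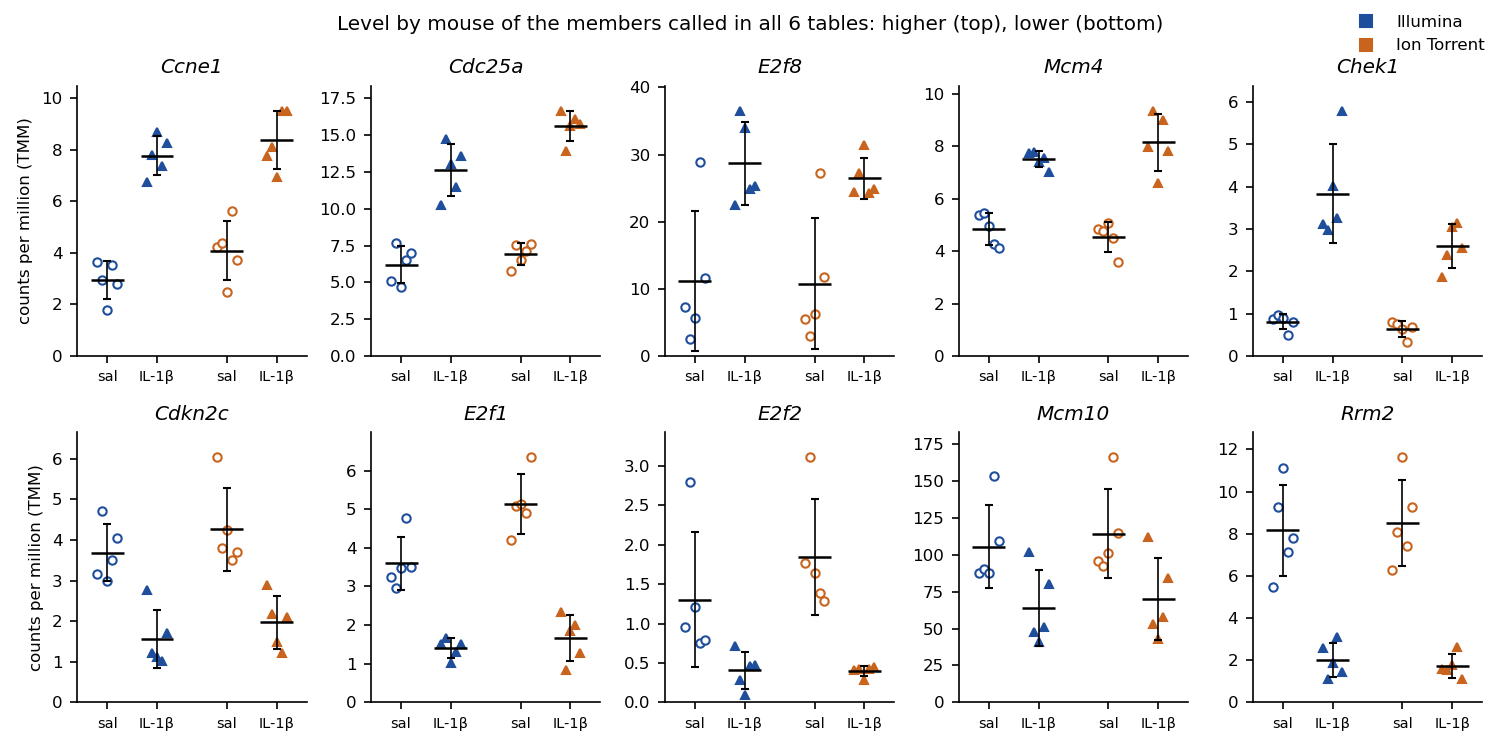
CPM (y axis, TMM-scaled, GSNAP) of the 10 members called in 1 direction in all 6 tables, for each untreated mouse (sal, open circles) and IL-1β mouse (filled triangles) on Illumina (blue) and Ion Torrent (orange), with the mean of 5 and SD. E2f8 has 1 untreated mouse, UNT_9580, at 28.9 and 27.2, inside the treated range, and Mcm10 has 1 treated mouse, ILB_9577, at 101.6 and 112.2, inside the untreated range.

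Cdkn2c (p18, which inhibits Cdk4 and Cdk6) was at 2.76, 1.21, 1.12, 1.03 and 1.71 CPM in treated and 3.17, 4.72, 2.999, 3.52 and 4.04 in untreated mice. The highest treated mouse, ILB_9577, lay just under the lowest untreated one. The gene fell by 1.23 on the log2 scale (SE 0.26, adjusted p = 0.00136, edgeR) and by 1.11 (SE 0.24) on Ion Torrent. It lies on chromosome 4 at 109333481 to 109339794, minus strand.

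Cdkn1b (p27, an inhibitor of Cdk2) differed little, at 25.6 ± 3.49 CPM with IL-1β and 25.4 ± 3.32 without (SD, n = 5 each), a log2 fold change of 0.01 (SE 0.12). Rb1, the retinoblastoma gene, was called lower in the 3 Illumina tables (GSNAP -0.58, SE 0.16, adjusted p = 0.00846, edgeR) and not called on Ion Torrent (-0.34, SE 0.20). Lpar6, which lies inside Rb1 on the other strand and overlaps 6.78% of its exons, was lower by -1.22 (SE 0.17). E2f3, the remaining activator E2F, was called higher in the Ion Torrent STAR table alone, where 5 of 10 fits that left out a mouse kept the call, with GSNAP values of -0.04 (SE 0.19) and 0.37 (SE 0.16). Without mouse ILB_9577 the Ion Torrent GSNAP value of E2f3 was 0.44 (adjusted p = 0.0448, edgeR).

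The 12 genes of origin licensing and the helicase gave 1 member higher and 1 lower in all 6 tables (17.3% and 17.6% of all genes). Subunits of the MCM hexamer, Mcm2 to Mcm7, did not share a direction. Mcm4 was at 7.75, 7.79, 7.39, 7.56 and 7.03 CPM with IL-1β and 5.39, 5.44, 4.94, 4.27 and 4.13 without. Its groups did not overlap on either platform. The rise was 1.55-fold on Illumina (log2 0.63, SE 0.13, adjusted p = 0.00127, edgeR) and 1.79-fold on Ion Torrent (0.84, SE 0.15). Mcm4 lies on chromosome 16 at 15623990 to 15637493, minus strand.

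The other 5 subunits were called in at most 3 tables each. Mcm2 was lower in the 3 Ion Torrent tables (GSNAP -0.66, SE 0.21, adjusted p = 0.0191, edgeR) and at -0.17 (SE 0.24) on Illumina. The Ion Torrent call was lost without UNT_9574 (-0.53) or UNT_9575 (-0.59). Mcm5 was lower in 2 Ion Torrent tables (GSNAP -0.75, SE 0.27), a call lost without any 1 of ILB_9578, ILB_9582, ILB_9583, UNT_9574, UNT_9580 and UNT_9584 (-0.75 to -0.60). Mcm6 was lower and Mcm7 higher in 2 Illumina tables each, with Illumina GSNAP values of -0.48 (SE 0.20) and 0.26 (SE 0.13) that missed the threshold. Of 10 fits that left out a mouse, 4 kept the Mcm6 call in Illumina STAR and 4 in STAR + Bowtie2, while 1 and 4 kept that of Mcm7. With GSNAP, Mcm6 passed the threshold without ILB_9577 (-0.60) or UNT_9576 (-0.58). Mcm3 was between 0.27 and 0.37 in the 6 tables and passed in none, though the Ion Torrent GSNAP value without ILB_9582 did (0.43, adjusted p = 0.0458).

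Mcm10, which helps turn the loaded helicase on, had the highest CPM of the members, with no allowance for gene length, and fell. It was at 101.6, 48.0, 40.7, 50.8 and 80.0 CPM in treated mice and at 87.4, 90.0, 87.5, 153 and 109 in untreated mice. Treated mouse ILB_9577 lay above 3 of the 5 untreated mice on Illumina, and on Ion Torrent it was at 112.2 beside 92.7 to 166 in the untreated group. The log2 fold change was -0.71 on both platforms (SE 0.23 each, adjusted p = 0.0207 and 0.0193, edgeR). This call rested on few animals: without UNT_9580 the values were -0.54 (adjusted p = 0.0645) and -0.53 (adjusted p = 0.0661), and with Ion Torrent GSNAP it was also lost without ILB_9578 (-0.62) or ILB_9582 (-0.65). In the Illumina STAR and STAR + Bowtie2 tables it was lost without ILB_9578, ILB_9579, ILB_9582 or UNT_9580. Over the 6 tables it held in 44 of 60 fits that left out 1 mouse. Mcm10 lies on chromosome 2 at 4910760 to 4933837, minus strand, and its annotated exons come to 7692 bases.

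Cdt1, which loads MCM with Cdc6, was called lower in 4 tables. Its Ion Torrent GSNAP value was -0.92 (SE 0.31, adjusted p = 0.0226, edgeR), lost without ILB_9582, UNT_9580 or UNT_9584 (-0.88 to -0.82), and its Illumina value of -0.66 (SE 0.27) passed without ILB_9583 or UNT_9576 (-0.82 and -0.81). Cdc45, which joins MCM in the active helicase, was at 3.03, 2.41, 2.71, 3.36 and 3.04 CPM with IL-1β and 0.792, 1.28, 1.22, 1.93 and 1.67 without. These Illumina groups did not overlap, and the log2 fold change was 1.08 (SE 0.23, adjusted p = 0.00126, edgeR), called in all 3 Illumina tables. On Ion Torrent it was 0.52 (SE 0.27, adjusted p = 0.134), with untreated mice at 0.916 to 2.84 and treated mice at 2.48 to 3.45. Ufd1l overlaps 9.28% of the Cdc45 exons on the other strand and was higher by 0.55 (SE 0.09).

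Of the GINS subunits, Gins1 was called lower with Ion Torrent GSNAP (-0.57, SE 0.21, adjusted p = 0.0362, edgeR), a call that ended when any 1 of 7 mice was left out (ILB_9578, ILB_9582, ILB_9583, UNT_9574, UNT_9575, UNT_9576 or UNT_9584, at -0.59 to -0.49). Gins2 passed in no table, at 0.35 (SE 0.30) and 0.54 (SE 0.39). Gse1 covers 67.3% of the exons of Gins2 on the other strand and fell by 1.62 (SE 0.19), so reads of the pair may be shared. Whether the counting used the strand is not given in the sources used here.

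Of the 5 genes of the fork, nucleotide supply and checkpoint, Chek1 and Rrm2 had the largest Illumina changes of all members and pointed in opposite directions. Chek1, the kinase that answers stalled forks, was at 3.12, 2.97, 4.02, 3.27 and 5.80 CPM with IL-1β and at 0.872, 0.960, 0.892, 0.502 and 0.790 without. In reads this is 32 to 61 against 6 to 12. Every treated library was above every untreated one. The fitted rise was 4.71-fold (log2 2.24, SE 0.26, adjusted p = 6.23e-06, edgeR) and 4.01-fold on Ion Torrent (2.004, SE 0.27). Chek1 lies on chromosome 9 at 36516067 to 36534650, minus strand.

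Rrm2, the small subunit of ribonucleotide reductase, which makes deoxynucleotides, was at 2.58, 1.11, 1.87, 3.08 and 1.43 CPM in treated mice and 5.47, 9.28, 11.1, 7.11 and 7.82 in untreated mice. The groups were apart on both platforms. The level with IL-1β was 0.248 of the untreated level on Illumina (log2 -2.01, SE 0.26, adjusted p = 2.075e-05, edgeR) and 0.204 on Ion Torrent (-2.29, SE 0.23). Rrm2 lies on chromosome 12 at 25393106 to 25399011, plus strand.

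The partner subunit Rrm1 passed in no table, at -0.42 (SE 0.18, adjusted p = 0.0745, edgeR) on Illumina and -0.37 (SE 0.19) on Ion Torrent. Treated mouse ILB_9578, at 11.4 CPM, lay apart from the other treated mice at 6.08 to 7.56, and without it the Illumina value was -0.61 (adjusted p = 0.00720). Without UNT_9580 it was -0.52 (adjusted p = 0.0230). Tyms (thymidylate synthase) was called lower in the Illumina STAR table, where 2 of 10 fits that left out a mouse kept the call, and its GSNAP values were -0.32 (SE 0.14) and -0.40 (SE 0.17). Without ILB_9583 or UNT_9574 the Ion Torrent value of Tyms passed, at -0.47 and -0.46. Pcna, the sliding clamp of the fork, was at 19.5 ± 0.874 CPM with IL-1β and 18.7 ± 1.87 without, a log2 fold change of 0.06 (SE 0.10), which became -0.054 without TMM scaling.

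In the mitotic and proliferation group no member was called in all 6 tables. Mki67, which encodes the Ki-67 protein of cycling cells, was at 1.61 to 4.01 CPM in treated and 1.28 to 3.60 in untreated mice (log2 0.30, SE 0.34). Top2a (topoisomerase II alpha) was at 0.855 to 1.95 and 0.792 to 2.02 (0.04, SE 0.29). The ranges of both genes overlapped over most of their width. Cdk1, the mitotic kinase, was called lower in 5 of 6 tables, at -0.69 (SE 0.25, adjusted p = 0.0332, edgeR) on Illumina and -0.98 (SE 0.26, adjusted p = 0.00537) on Ion Torrent. The Illumina GSNAP call was lost without ILB_9577, ILB_9579, ILB_9583, UNT_9574 or UNT_9580 (-0.66 to -0.60), and 2 of 10 such fits kept it with Illumina STAR + Bowtie2.

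Ccnb2 (cyclin B2) passed in no table, at -0.58 (SE 0.41) and -0.46 (SE 0.58). Ccnb1 (cyclin B1) had 0 to 2 reads in treated and 1 to 6 in untreated Illumina GSNAP libraries, which cannot show a change of the size seen in most members. Ccna2 (cyclin A2, a partner of Cdk2 and Cdk1) was called on 1 platform. Its Ion Torrent GSNAP libraries held 10, 6, 10, 6 and 9 reads with IL-1β and 4, 3, 1, 3 and 3 without, so every treated library was above every untreated one. The log2 fold change there was 1.66 (SE 0.40, adjusted p = 0.00327, edgeR), and 1.33 and 1.45 with the other aligners. Illumina libraries of the same RNA held 17, 7, 8, 8 and 3 reads with IL-1β and 16, 10, 13, 13 and 17 without, a log2 fold change of -0.51 (SE 0.35, adjusted p = 0.249). Without treated mouse ILB_9577, the highest on Illumina, that value was -0.89 (adjusted p = 0.0399). Exosc9 overlaps 14.6% of the Ccna2 exons on the other strand and was at 0.17 (SE 0.11) and 0.18 (SE 0.14).

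**Figure D3:**
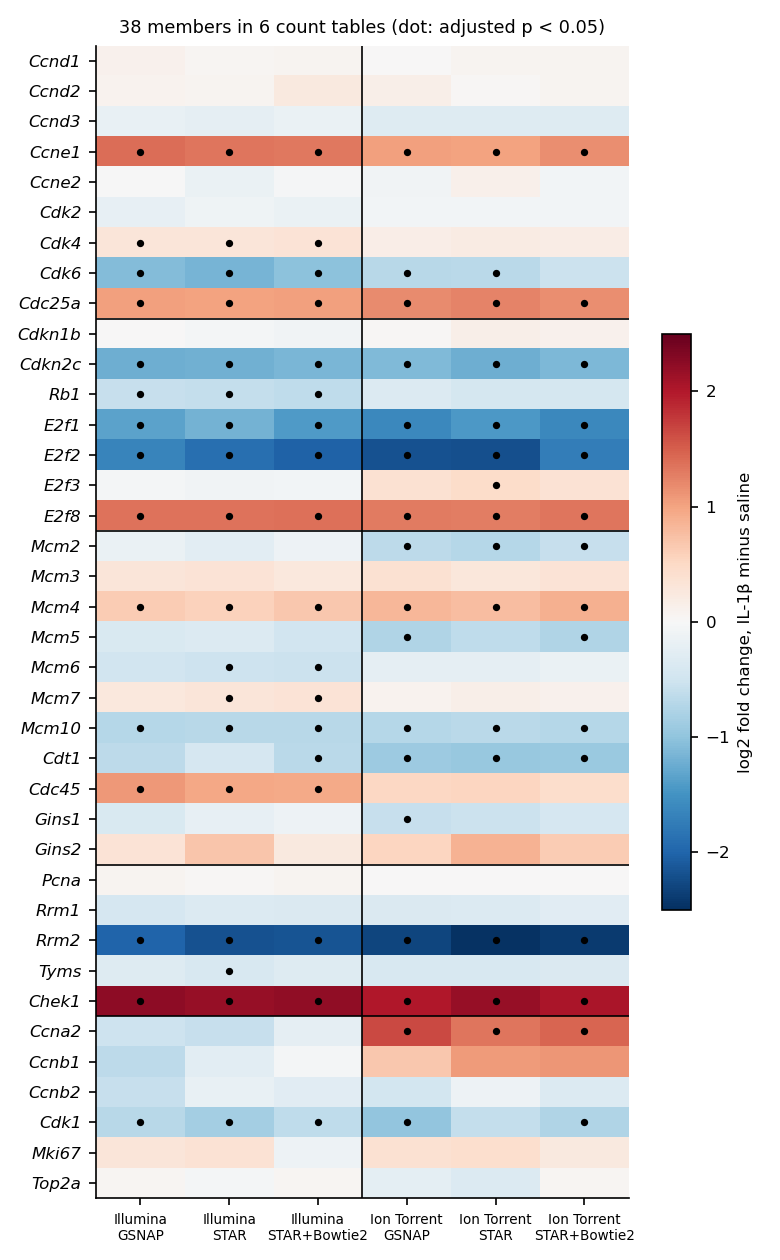
Log2 fold change (color, IL-1β minus untreated, 5 mice each) of the 38 members (rows, lines part the 5 role groups) in the 6 tables (columns, platform and aligner), with a dot where the adjusted p was below 0.05. Ccne1, Cdc25a, E2f8, Mcm4 and Chek1 carry 6 red dots and Cdkn2c, E2f1, E2f2, Mcm10 and Rrm2 6 blue ones, while Ccna2 is red on Ion Torrent and blue on Illumina.

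Counted by role with Illumina and Ion Torrent GSNAP in turn, the 16 G1 regulators had 4 and 3 members higher and 5 and 4 lower, or 3 and 3 on Ion Torrent without UNT_9584. Over all genes 23.7% and 22.5% were higher and 23.9% and 23.9% lower. Without UNT_9584 the Ion Torrent shares of all genes were 21.0% higher and 22.0% lower. The 16 replication genes tested had 3 and 2 higher and 2 and 6 lower, and without UNT_9584 the Ion Torrent count was 2 higher and 3 lower (Mcm5, Cdt1 and Gins1 were lost). The 6 mitotic genes had 0 and 1 higher and 1 and 1 lower, the same on Ion Torrent without that mouse. The median log2 fold change was -0.02 and -0.02 for the G1 regulators, -0.24 and -0.30 for the replication genes, and -0.55 and 0.06 for the mitotic genes. Over all 6 tables the G1 regulators held 3 members higher and 3 lower, the replication genes 2 and 2, and the mitotic genes none. The calls of single tables in the other 4 tables numbered 8 higher and 10 lower with Illumina STAR (45.7% of all genes called, 22.7% higher and 22.9% lower), 8 and 10 with Illumina STAR + Bowtie2 (47.4%, 22.9% higher and 24.4% lower), 7 and 8 with Ion Torrent STAR (42.1%, 20.3% higher and 21.8% lower) and 6 and 9 with Ion Torrent STAR + Bowtie2 (46.7%, 22.8% higher and 24% lower). Without UNT_9584 the last 2 gave 6 higher and 6 lower, and 7 and 7. The shares of all genes without that mouse were 18.8% higher and 20.0% lower, and 21.1% and 22.0%.

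Leaving out each mouse in turn in each table gave 60 fits for every member. Ccne1, Cdc25a, Mcm4 and Chek1 were called higher and Cdkn2c, E2f1 and Rrm2 lower in 60 of 60. E2f8 and E2f2 were called in 59 of 60, and the exceptions are given above with the values of Mcm10.

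Levels of different genes were compared per kilobase of annotated exon (CPM per kb, Illumina GSNAP, mean ± SD of 5 mice), with no test. In untreated liver the order began with Mcm10 at 13.7 ± 3.66, Ccnd3 at 12.7 ± 1.74, Cdk4 at 9.97 ± 0.931 and Pcna at 7.78 ± 0.777. Mcm10 and Ccnd3 differed by less than their spread. Ccnd1 (6.17 ± 1.73), Cdk2 (5.69 ± 1.32) and Cdkn1b (5.58 ± 0.730) came next and could not be put in order either.

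Other parts of the replication machinery were scarcer. Mcm7, the most abundant subunit of the hexamer, was at 2.36 ± 0.338 and Mcm5, the least abundant, at 0.456 ± 0.128, so Mcm10 stood above every subunit of the hexamer. Levels of the mitotic genes lay between 0.568 ± 0.133 (Cdk1) and 0.0441 ± 0.0459 (Ccnb1). With IL-1β, Cdk4 was first at 12.3 ± 1.38, followed by Ccnd3 (11.1 ± 1.43) and Mcm10 (8.35 ± 3.34). Chek1 moved from place 35 to place 21 of 38 (0.173 ± 0.0385 to 0.825 ± 0.252), and Rrm2 from place 8 to place 25 (2.94 ± 0.774 to 0.727 ± 0.293).

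**Figure D4:**
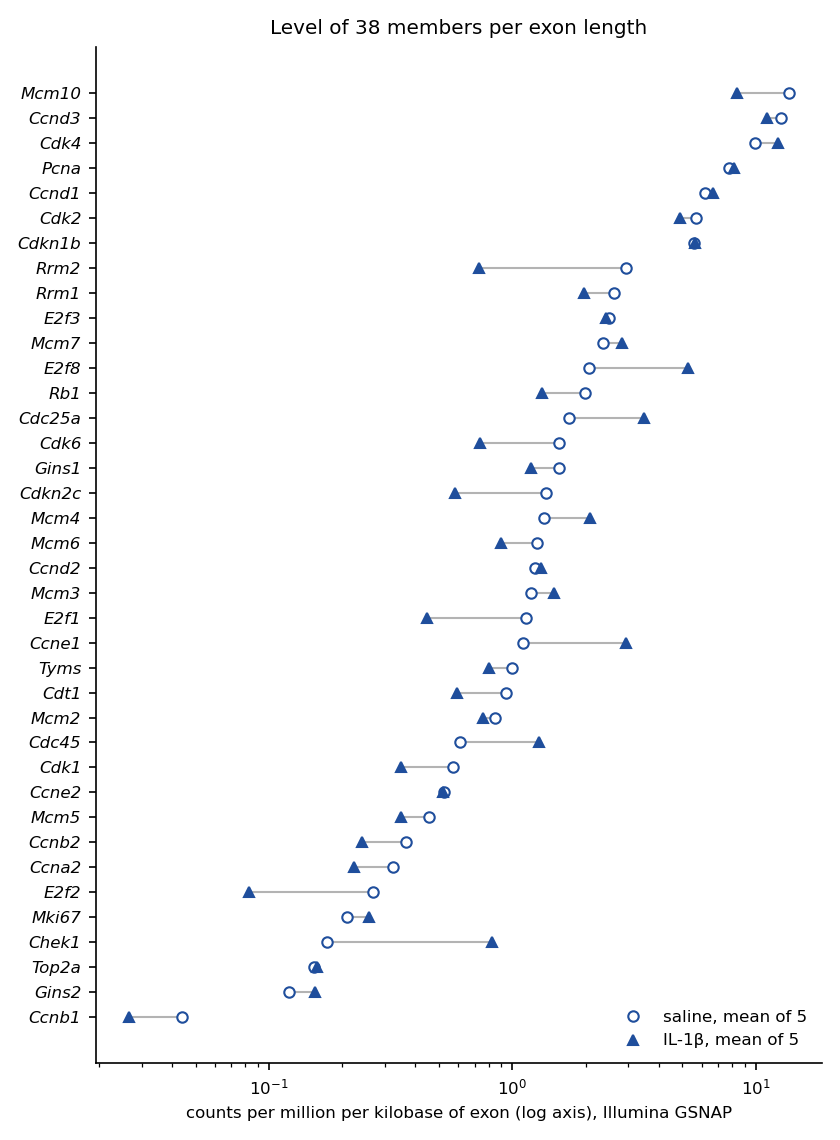
Mean level of the 38 members in 5 untreated (open circles) and 5 IL-1β mice (triangles), in CPM per kilobase of exon on a log axis, ordered by the untreated level (Illumina GSNAP). Untreated levels run from 0.0441 for Ccnb1 to 13.7 for Mcm10.

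The platforms were compared through the difference between the 2 treatment effects of a gene (Ion Torrent minus Illumina log2 fold change), from 1 edgeR model of all 20 libraries per aligner in which each mouse is a block. No member passed at an adjusted p below 0.05 with GSNAP, STAR or STAR + Bowtie2, where 0.0642%, 0.00642% and 0.077% of all genes passed. Counts with limma-voom and DESeq2 were 0 as well. At an unadjusted p below 0.05, 4, 3 and 3 members passed, or 10.5%, 7.89% and 7.89%, beside 7.8%, 7% and 7.77% of all genes. Ccna2 had the largest difference, 2.18 (SE 0.53, adjusted p = 0.246, edgeR) with GSNAP, and E2f3 was among those members with each aligner (0.43, SE 0.15, adjusted p = 0.578 with GSNAP). The median absolute difference over the members was 0.18 with GSNAP.

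**Figure D5:**
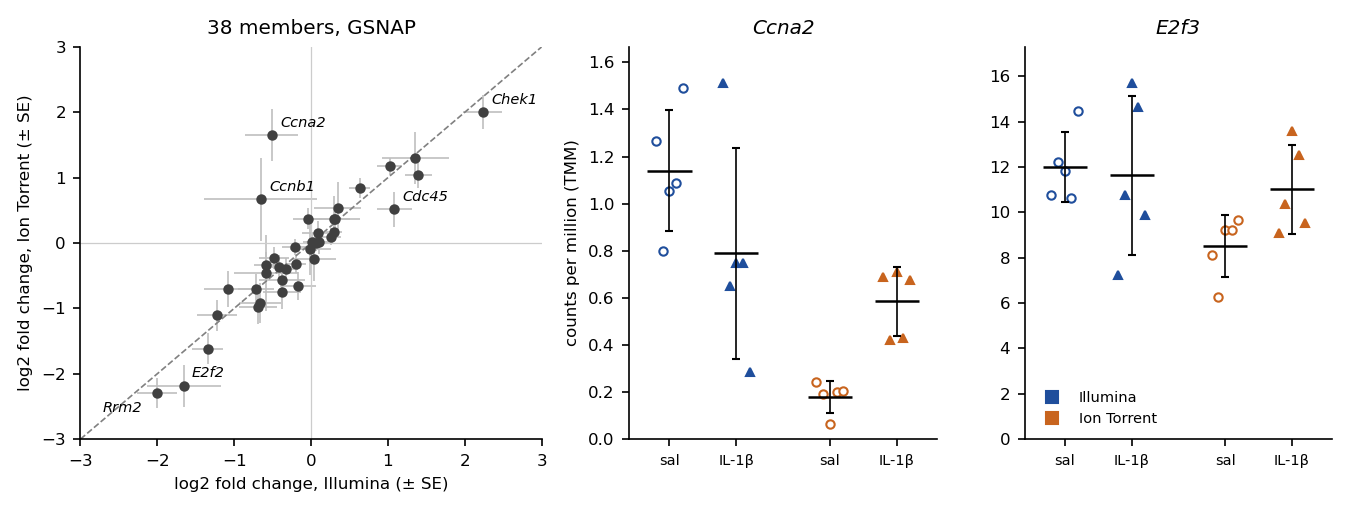
Left, log2 fold change with SE of the 38 members with Illumina counts on the x axis and Ion Torrent counts on the y axis, GSNAP, with the line of equal change dashed. Middle and right, CPM by mouse with mean and SD of 5 for Ccna2 and E2f3 (sal, untreated). Ccna2 lies at -0.51 and 1.66, and its Ion Torrent groups do not overlap while its Illumina groups do.

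To set the members among their neighbors, 110 further genes of the same pathways were listed, of which 94 were tested. Of these, 16 were higher in all 6 tables and 22 lower, or 40.4%, beside the 34.9% of all genes. The 20 other G1 regulators gave 6 higher and 2 lower, the 45 other replication genes 8 higher and 15 lower, and the 29 other mitotic genes 2 higher and 5 lower. The median log2 fold change of the other replication genes was -0.55 on Illumina and -0.33 on Ion Torrent (GSNAP).

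Wee1, the kinase that holds Cdk1 inactive, had the largest change of these genes. It was at 1.07, 0.464, 0.187, 0.467 and 0.475 CPM in treated mice and 8.48, 12.3, 9.08, 7.45 and 9.48 in untreated mice. The groups were far apart, with log2 fold changes of -4.10 (SE 0.28) and -4.01 (SE 0.20) on the 2 platforms. Tk1 (thymidine kinase, which salvages thymidine) was at 2.32 to 6.74 CPM with IL-1β and 19.3 to 29.0 without (-2.39, SE 0.22). Gmnn (geminin, the inhibitor of Cdt1) was lower by -1.89 (SE 0.18), and Cenpa (the histone H3 variant of centromeres) by -2.498 (SE 0.37).

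The catalytic subunits of DNA polymerases alpha and epsilon, Pola1 and Pole, were at -1.49 (SE 0.25) and -1.38 (SE 0.21). Cks2, a small subunit of cyclin-dependent kinases, was at -1.51 (SE 0.22), and Tfdp2, a DNA-binding partner of the E2Fs, at -1.39 (SE 0.14). Higher with IL-1β were Espl1 (separase, which frees sister chromatids), at 2.57 (SE 0.48) on Illumina and 1.33 (SE 0.39) on Ion Torrent, and Chaf1b (a subunit of chromatin assembly factor 1), at 1.57 (SE 0.18). Each of these 10 genes had an adjusted p below 0.05 in all 6 tables (edgeR).

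Sequence at the start of the members was read from RefSeq promoters of GRCm38.p6, 250 bases before to 50 after the annotated start, which were given for 31 of the 39 members. Letters like those of an E2F site were searched on both strands as TTTGGCGC, TTTCGCGC, TTTCCCGC or TTTGGGGC. This list does not hold every form of the site, and TTTGGGGC lacks the CGC end of the others. Any window of a gene was counted. A match to the list was found for 11 of the 31 members, or 35.5%, and for 3.49% of 27025 genes with such a window. No match in a member was to TTTGGGGC, and its part in the 3.49% was not counted apart. Sites of a form not listed are missed in both shares. Of the members that rose in all 6 tables, 1 of 4 with a window held a match (Cdc25a). Of those that fell, 1 of 5 did (E2f2, after the start), and of the others 9 of 22, or 40.9%. The CCAAT box, searched as CCAAT on both strands, was found for 74.2% of the members and 41.1% of all genes, and the CHR element (TTTGAA or TTCGAA) for 32.3% and 21.7%. These matches describe letters and not bound sites. The stretches of 4 members that held the letters before the start are shown 5′ to 3′ on the strand of the gene, with the E2F letters in capitals. These members were called in different directions, and the calls of Mcm5 and Mcm7 depended on single mice, as given above. In Mcm5 the capitals span overlapping matches on both strands, and in Mcm7 they read TTTCCCGC on the other strand. A further Mcm7 match, TTTCGCGC after the start, lies outside the stretch shown.
Cdc25a, called higher in 6 tables, chr9:109875492-109875539, plus strand: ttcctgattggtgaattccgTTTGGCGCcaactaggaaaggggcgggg
Cdk1, called lower in 5 tables, chr10:69353016-69353063, minus strand: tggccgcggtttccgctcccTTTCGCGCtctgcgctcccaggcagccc
Mcm5, called lower in 2 tables, chr8:75109336-75109387, plus strand: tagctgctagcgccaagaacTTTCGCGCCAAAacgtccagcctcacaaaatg
Mcm7, called higher in 2 tables, chr5:138172021-138172068, minus strand: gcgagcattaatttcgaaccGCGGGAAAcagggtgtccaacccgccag

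Markers of several other cell types differed between the groups, and 47.5% of all genes were called with Illumina GSNAP (23.7% higher and 23.9% lower). Of the neutrophil and granulocyte markers, 7 of 7 tested were higher with IL-1β on both platforms, and they summed to 55.4 to 121 CPM in treated and 2.81 to 6.02 in untreated Illumina libraries. Of 7 markers listed for granulocyte precursors, 3 were tested, and 2 were called higher and 0 lower on each platform. Those tested summed to 1.31 to 4.08 CPM with IL-1β and 0.0878 to 1.19 without on Illumina. The Ion Torrent sums were 5.17 to 7.08 and 1.69 to 3.57 CPM. In this list, Mpo, Elane and Ctsg had 0 to 2 reads in each Illumina library. Ngp and Ltf were higher, with 7 to 30 and 2 to 10 reads in treated and 0 in untreated Illumina libraries. Whether these genes mark dividing cells here was not tested. On Ion Torrent, Ltf had 29 to 53 reads with IL-1β and 14 to 36 without. Kupffer cell and macrophage markers summed to 73.3 to 171 CPM with IL-1β and 133 to 231 without (1 higher and 4 lower of 7). Erythroid markers summed to 124 to 194 and 175 to 238 CPM, with Gata1 at 0 reads in the Illumina libraries. Of 5 tested, 0 were called higher, while 1 was called lower on Illumina and 2 on Ion Torrent. Epor was lower on both platforms (-1.68, SE 0.47, and -2.24, SE 0.30). Of 6 lymphocyte markers 3 were lower on Illumina, with sums of 1.43 to 2.43 and 2.18 to 5.07 CPM. Of the endothelial markers 2 of 6 were higher and 2 lower on Illumina, of the stellate cell and fibroblast markers 2 of 6 were lower, and of the cholangiocyte markers 2 of 5 were higher. Hepatocyte markers summed to 71800 to 81300 CPM with IL-1β and 90600 to 112000 without. Of these 7 markers, 1 was higher and 3 lower on Illumina, and 1 higher and 4 lower on Ion Torrent. The part of these cells in the changes of the cell cycle genes was not tested.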

How the data were processed

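Liver RNA of 10 mice was sequenced on 2 platforms, and per the labels and the study's methods the reads were mapped by the authors to mm9 in 3 ways, by STAR (2.5.1b), by GSNAP, and by STAR with Bowtie2 (2.2.9) for what STAR left, and re-sampled them to equal depth with PORT, on Ensembl gene models. The deposited values are whole-number counts per gene, and re-sampling by the authors leaves totals that differ by little within a table but cannot remove a shift in composition. No column belonged to other samples (0 columns).

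Each table was fitted separately with edgeR 4.0.16 (R 4.3.3): TMM factors, quasi-likelihood test, untreated mice against IL-1β mice, Benjamini-Hochberg adjustment over 15578 genes with at least 5 reads in 5 libraries of any table. The SE is the log2 fold change divided by the root of F. Alternatives were DESeq2 size factors or no TMM in edgeR, other filters, limma-voom 3.58.1, DESeq2 1.42.0, the rank-sum test of the study (raw counts) and leaving out each mouse. The platform difference was taken from 1 model of the 20 libraries per aligner, blocked by mouse, since both libraries of a mouse come from 1 RNA. Their deviations from the group means correlated at 0.199 to 0.728.

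The 39 genes and the other lists were chosen with earlier results of these data known. Full values by mouse are given for members called in 1 direction in all 6 tables, for Cdc45 and Ccna2, and for Wee1 of the other pathway genes. Cdc45 and Ccna2 were chosen, after values were seen, from the members called on 1 platform alone. The 10 other pathway genes are named by size of change among those called in all 6 tables. Gene positions, exon lengths and overlaps came from GENCODE models of mm9, and motifs from RefSeq promoters of GRCm38.p6. The GENCODE models hold 37310 of the 37681 genes listed, and may differ from the Ensembl models used for the counts. Scripts were tested on simulated data. Figures used matplotlib 3.10.9. Mice are separate animals, so in the fits of a single table the p-values rest on the spread between animals. Those of the platform difference rest on the spread left between libraries after the mouse block.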

Additional observations from a re-analysis of the deposited data

Results flagged for a closer look

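In 6 of 152 groups of 5 mice checked, 1 mouse lay farther from the others than Dixon's 95% limit allows, and chance alone flags about 1 group in 20. E2f2 accounts for 3 of the 6. Its untreated mouse UNT_9575 was at 2.80 CPM on Illumina, with the others at 0.753 to 1.22, and at 3.11 on Ion Torrent, with the others at 1.28 to 1.77. Treated mouse ILB_9579 was at 0.283 CPM of E2f2 on Ion Torrent, below the others at 0.413 to 0.450.

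Rrm1 was at 11.4 CPM in treated mouse ILB_9578 on Illumina, with the others at 6.08 to 7.56. Cdkn2c was at 6.05 CPM in untreated mouse UNT_9574 on Ion Torrent, above 3.51 to 4.24. Ccnb1 was at 0.527 CPM in untreated mouse UNT_9584 on Illumina, above 0.0800 to 0.158, from 6 reads.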

How the results depend on the processing

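Counts over all 6 tables were recomputed under the same alternatives, a step chosen after seeing the data. Of the 5 genes that rose in all 6, 5 were kept under every alternative but the rank-sum test and the fit without UNT_9574, which each gave 4 and lost E2f8. Of the 5 that fell, the rank-sum test kept 3 (E2f2 and Mcm10 lost, Tyms gained), the fits without ILB_9578, ILB_9579, ILB_9582 or UNT_9580 kept 4 (Mcm10 lost) and the fit without UNT_9575 kept 4 (E2f2 lost, Cdk6 gained). The fit without UNT_9576 gave 6, with Cdk1 added. Without TMM 7 fell, with Cdk1 and Tyms added, and with limma-voom 6, with Cdk1 added.

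In single tables, the rank-sum test called 5 members higher with Illumina STAR and 5 with Illumina STAR + Bowtie2, against 8 each, and without TMM 13 were lower with Ion Torrent STAR, against 8, as the share of all genes called lower also rose. Leaving out 1 mouse gave 6 to 8 higher in each of those Illumina tables. It gave 6 to 10 lower with Illumina STAR + Bowtie2, 6 to 10 with Ion Torrent GSNAP, 5 to 9 with Ion Torrent STAR and 5 to 10 with Ion Torrent STAR + Bowtie2. The causes were not tested. The platform difference without the replicate block, in place of pairing by mouse, also called 0 members with each aligner.

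In the GSNAP tables, the signs that turned were of values not called in that table. On Illumina without TMM, Ccnd1 was at -0.026, Ccnd2 -0.037, Cdkn1b -0.11, Pcna -0.054 and Top2a -0.074, and as log2 ratios of mean counts beside the rank-sum test -0.075, -0.086, -0.16, -0.10 and -0.13. On Ion Torrent without TMM, Ccnd1 was at -0.10, Cdkn1b -0.081, Mcm7 -0.016 and Pcna -0.097, and beside the rank-sum test Ccnd1 -0.14, Ccnd2 -0.0031, Cdkn1b -0.12, Mcm7 -0.059 and Pcna -0.14. With no filter Ccne2 was at 0.016 on Illumina, and with the filter in the table itself Pcna was at -0.0055 on Ion Torrent. Leaving out 1 mouse, the Illumina values ran from -0.017 to 0.27 for Ccnd1, -0.042 to 0.19 for Ccnd2, -0.23 to 0.15 for Ccne2, -0.057 to 0.080 for Cdkn1b, -0.19 to 0.090 for E2f3, -0.91 to 0.13 for Ccnb1 and -0.13 to 0.21 for Top2a. The Ion Torrent values ran from -0.13 to 0.16 for Ccnd1, -0.46 to 0.24 for Ccne2, -0.064 to 0.086 for Cdkn1b and -0.065 to 0.066 for Pcna. An order of levels without gene length was not run. Few reads limit Ccnb1, Ccnb2, Ccna2 and E2f2.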

Other observations

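In some complexes among the other pathway genes, subunits had opposite signs (log2 fold changes, Illumina then Ion Torrent, GSNAP). This pattern was picked after values were seen, and the difference was not tested. Rpa1, the large subunit of the single-strand binding protein RPA, was at -1.04 (SE 0.11) and -1.03 (SE 0.11), and its partner Rpa2 at 0.89 (SE 0.16) and 0.86 (SE 0.16). Chaf1a was at -1.35 (SE 0.33) and -1.58 (SE 0.29), while its partner Chaf1b was higher.

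The paralogs Cks1b and Cks2 also differed in sign, Cks1b being at 1.37 (SE 0.18) and 1.51 (SE 0.20). Rbl1, a relative of Rb1, was at 1.18 (SE 0.21) and 1.23 (SE 0.28), and Rbl2 at -0.82 (SE 0.10) and -0.81 (SE 0.12). In the origin recognition complex, Orc2 was at 1.08 (SE 0.14) and 1.04 (SE 0.18) and Orc5 at -0.71 (SE 0.14) and -0.43 (SE 0.16). Each of these genes kept its sign in 18 of 18 fits over 3 scalings and 6 tables. These fits use the same mice and are not independent, so a shared sign is not a call. Rpa3, another RPA subunit, was negative in 18 of 18 and called lower in 3 tables. Of the other origin recognition subunits tested, Orc6 was positive in 18 of 18, Orc4 in 17 and Orc3 in 15. Orc6 was called higher in 1 table, and Orc4 and Orc3 in 0. Other complexes shared a sign. Rfc1, Rfc2, Rfc3, Rfc4 and Rfc5 of replication factor C were negative in 18 of 18, as were Pola1, Pola2, Prim1 and Prim2 of the polymerase alpha complex. Of these, Rfc3 was called lower in 0 tables, Rfc4 and Prim2 in 3 each and Prim1 in 5. The remaining genes were called lower in 6.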
